A study of Saccharomyces cerevisiae with 18 samples.

Results

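RNA polymerase II is the enzyme that makes messenger RNA in eukaryotes, and the genes described here encode 10 of its 12 subunits in budding yeast. They are RPO21, RPB2, RPB3, RPB4, RPB5, RPB7, RPB8, RPB9, RPB10 and RPB11, taken by name from a table of 7126 genes and other features. All 10 were found and all 10 passed the filter on low values. The 2 remaining subunits, RPO26 and RPC10, are given beside them.

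RNA was measured in 18 libraries of strain BY4741, a laboratory strain of mating type a, in 6 groups of 3 biological replicates. Every strain carried a tag, either on Rvb1 or on Rvb2, and the kind of tag is not named in the labels. In each tagged background the cells were otherwise wild type (WT), lacked PIH1 or lacked TAH1. Small YPD cultures, a rich glucose medium, were grown at 30 °C to an OD600 between 1.2 and 1.5, and poly(A) RNA was sequenced. Each background has its own wild type, and no untagged strain was analysed here. Whether a deletion strain is 1 clone is not given in the sources used here, so p-values refer only to how these libraries vary.

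Rvb1 and Rvb2 are related ATPases of the AAA+ family. With Pih1 and Tah1 they form the R2TP complex, which works with the HSP90 chaperone in building large protein complexes, RNA polymerase II among them. In the finished enzyme, Rpo21 (also called Rpb1) and Rpb2 form the active centre. Rpb3 and Rpb11 make a platform on which assembly starts, together with Rpb10. Rpb5, Rpb8, Rpb10, Rpo26 and Rpc10 are shared with RNA polymerases I and III. Rpb4 and Rpb7 form a stalk that binds near the RNA exit, and Rpb9 sits at the edge of the enzyme and affects start site choice and transcript proofreading.

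The genes lie on 6 chromosomes, have no introns and overlap no other annotated gene in the R64 reference, the assembly also called sacCer3. RPO21 is on chromosome IV (205360 to 210561, minus strand), RPB4 on X (150961 to 151626, plus) and RPB9 on VII (374459 to 374827, minus). RPB2, RPB8, RPB10 and RPB11 are all on chromosome XV, RPB3 is on IX, RPB5 on II and RPB7 on IV. Their coding lengths run from 213 bases (RPB10) to 5202 bases (RPO21).

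Of the 10 genes, 5 rose in both PIH1 deletions: RPO21, RPB5, RPB8, RPB9 and RPB10. Of the 5825 genes tested, 12.8% rose in both. The windows from 300 to 51 bases before the start codon of RPO21, RPB5, RPB8 and RPB9 are shown because each holds AAAATTT, the core letters of the ribosomal RNA processing element (RRPE) found before many ribosome biogenesis genes. The window of RPB4 is shown beside them because its transcript moved in opposite directions in the 2 backgrounds. Sequences are from the RefSeq R64 genome, read 5′ to 3′ on the strand of the gene, with matches to the motifs listed after them in capitals.
RPO21, chrIV:210612-210861, minus: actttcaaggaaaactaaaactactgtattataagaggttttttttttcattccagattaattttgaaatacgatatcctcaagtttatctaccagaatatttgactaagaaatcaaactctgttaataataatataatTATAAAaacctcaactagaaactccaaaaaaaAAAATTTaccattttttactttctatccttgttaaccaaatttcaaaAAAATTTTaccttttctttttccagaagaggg
RPB5, chrII:549060-549309, minus: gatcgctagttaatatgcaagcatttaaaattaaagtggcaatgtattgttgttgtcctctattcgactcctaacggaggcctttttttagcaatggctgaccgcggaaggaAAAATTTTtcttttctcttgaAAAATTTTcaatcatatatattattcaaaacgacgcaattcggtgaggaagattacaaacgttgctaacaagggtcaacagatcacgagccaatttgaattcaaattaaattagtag
RPB8, chrXV:761316-761565, minus: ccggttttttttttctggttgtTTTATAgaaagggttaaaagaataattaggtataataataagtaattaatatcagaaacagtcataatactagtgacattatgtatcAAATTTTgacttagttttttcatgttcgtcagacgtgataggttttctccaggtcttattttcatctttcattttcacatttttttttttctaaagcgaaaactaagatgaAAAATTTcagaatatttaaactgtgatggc
RPB9, chrVII:374878-375127, minus: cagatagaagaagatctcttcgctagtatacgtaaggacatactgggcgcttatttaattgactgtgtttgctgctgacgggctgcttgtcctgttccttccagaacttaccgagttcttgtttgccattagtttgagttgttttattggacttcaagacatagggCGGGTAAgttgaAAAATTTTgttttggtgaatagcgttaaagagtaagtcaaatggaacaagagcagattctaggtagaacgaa
RPB4, chrX:150661-150910, plus: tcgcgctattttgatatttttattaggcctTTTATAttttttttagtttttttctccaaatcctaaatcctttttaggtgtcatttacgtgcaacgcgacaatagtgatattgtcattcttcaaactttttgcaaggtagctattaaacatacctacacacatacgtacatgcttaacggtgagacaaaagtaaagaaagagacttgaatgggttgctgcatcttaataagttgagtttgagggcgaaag

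Capitals mark AAAATTT, the Reb1 site CGGGTAA and the TATA box letters TATAAA on either strand, and matches on opposite strands can overlap, as in AAAATTTT. Windows were analysed for 9 members. AAAATTT stood in 4 of these 9 and in 22.1% of the windows of 6000 protein-coding genes. Among all genes that rose in both PIH1 deletions, 354 of 734 with a window (48.2%) held these letters, against 932 of 4824 other tested genes (19.3%). These are counts of letters, with no test. The letters GATGAG of the PAC element (17.8% of all windows), TGACTCA of Gcn4 (2.38%) and AGGGG of the stress response element (19.2%) were in none of the 9. CGGGTAA was in those of RPB9 and RPB11 (7.85% of all), and TATAAA in those of RPO21, RPB2, RPB3, RPB4 and RPB8 (43.1% of all). The window of RPB9 reaches into the neighbouring gene MNP1.

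Each library held 4829249 to 5412654 normalized counts in all, and its reads, as estimated from the steps between low values, came to 4465815 to 6244219. In simulated tables the scaling factor estimated this way was within 1% of the true one in 8 of 10. The members' normalized counts lay between 313 and 2886. PIH1 measured 1 to 9 in its deletion strains and 125 to 170 elsewhere, and TAH1 0 to 3 in its deletion strains and 138 to 234 elsewhere. Markers of a cells summed to 12144 to 17658 and those of alpha cells to 324 to 551. Of the alpha markers, MFALPHA1, an alpha-factor gene, measured 0 to 11, STE3 1 to 36, MFALPHA2 34 to 73 and SAG1 256 to 492. Rvb1-tagged wild type replicate 2 stood farthest from its group, at a root mean square distance of 0.404 on the log2 scale against 0.155 to 0.306 for the other 17 libraries. The source label of Rvb2-tagged wild type replicate 1 names Rvb1 while its title names Rvb2, and the title was followed. In the Rvb2-tagged TAH1 deletion, 443 genes of chromosome XVI had a median log2 change of 0.97, against -0.0098 on the other chromosomes. No member lies on chromosome XVI, and the chromosome arms that carry members had median log2 changes between -0.0963 and 0.0503 in all 4 deletions. For the members in that strain, the loss of TAH1 and the raised chromosome cannot be told apart.

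In wild type cells the subunit transcripts were present at unequal levels per length. The levels are given as FPKM, fragments scaled by gene length and, library by library, in the same way as the normalized counts. Over the 6 wild type libraries RPB8 had the highest mean, 546 ± 61.7 FPKM (SD, n = 6), followed by RPB10 at 522 ± 77.1, RPO26 at 521 ± 59.5 and RPC10 at 388 ± 60.9. These 4 small shared subunits overlapped each other and lay above all the rest. RPB5 (280 ± 25.7), RPB11 (265 ± 32.9) and RPB4 (244 ± 18.7) formed the next group, whose libraries overlapped. RPB7 (188 ± 11.3) and RPB9 (179 ± 7.74) followed. The lowest were RPB2 (95.8 ± 13.2), RPB3 (83.8 ± 6.85) and RPO21 (82.3 ± 7.39), which overlapped each other. The order breaks, with no overlap between neighbours, after RPC10, after RPB4 and after RPB9. Even the lowest members lay above the median of 50.2 FPKM of the genes tested, and the members lay above 66.2% to 94.2% of those genes.

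**Figure D1:**
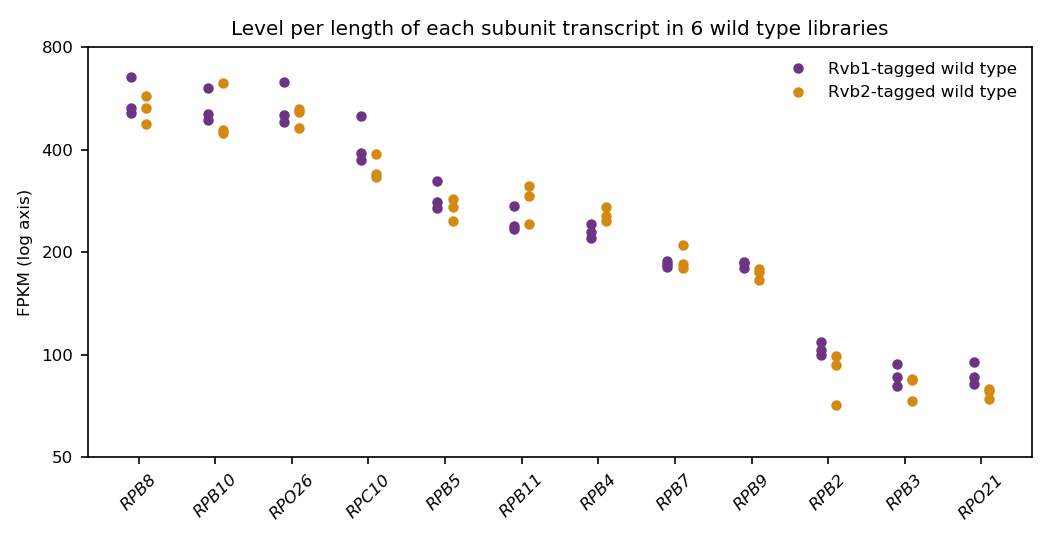
FPKM (log axis) of each of the 12 subunit transcripts in the 6 wild type libraries, 1 point per library, purple for the Rvb1-tagged and orange for the Rvb2-tagged wild type. The shared subunits RPB8, RPB10, RPO26 and RPC10 lie highest, with means from 388 to 546, and RPB2, RPB3 and RPO21 lowest, with means from 82.3 to 95.8.

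Most subunit transcripts rose when PIH1 was deleted, in both backgrounds, each by a fraction of a doubling. In the Rvb1-tagged PIH1 deletion 8 of 10 rose and 0 fell, where 19.2% of the 5825 genes tested rose and 18.7% fell. The members' median log2 change was 0.29, against 0.011 for all genes. In the Rvb2-tagged PIH1 deletion 6 of 10 rose and 1 fell, where 35.2% of all genes rose and 34.4% fell, with medians of 0.35 and 0.0052. The SD of the log2 change over all genes was 0.41 and 0.79 in these 2 strains, and no member moved by more than 0.57. Calls are from limma on log2(normalized count + 1), with a Benjamini-Hochberg adjusted p under 0.05 over all genes tested.

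Deletion of TAH1 gave fewer calls. In the Rvb2-tagged TAH1 deletion 4 of 10 rose (RPO21, RPB2, RPB5 and RPB9) and 0 fell, where 23.8% of all genes rose and 20.6% fell, and the median log2 changes were 0.20 for the members and 0.023 for all genes. In the Rvb1-tagged TAH1 deletion 1 of 10 had an unadjusted limma p under 0.05 (RPB8), as did 1657 of the 5825 genes tested. By adjusted p 0 of 10 were called, where 6.28% of all genes rose and 4.48% fell. Leaving out 1 library changed this 0. Without Rvb1-tagged wild type replicate 2, the one that stood apart, 3 were called higher by limma: RPB5 (log2 change 0.23, adjusted p = 0.022), RPB8 (0.29, adjusted p = 0.0031) and RPB10 (0.33, adjusted p = 0.030). In that fit 1017 of all 5825 genes tested rose and 810 fell, against 366 and 261 in the main fit. Without that library the counts in the Rvb1-tagged PIH1, Rvb2-tagged PIH1 and Rvb2-tagged TAH1 deletions were 8, 7 and 5, and without Rvb2-tagged wild type replicate 1 they were 9, 7 and 4. The PIH1 and TAH1 deletions of a background share their wild type libraries, while the 2 backgrounds share none. The values are shares of the RNA of a whole culture, so fewer cells of a kind and less RNA per cell cannot be told apart.

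Of the catalytic pair, RPO21 rose in 3 of the 4 deletions and RPB2 in 2. RPO21 (YDL140C), the gene of the largest subunit, measured 2193, 2527 and 2305 normalized counts in the Rvb1-tagged wild type and 2871, 2674 and 2886 in its PIH1 deletion. All 3 deletion libraries lay above all 3 wild type libraries, and the log2 change was 0.26 ± 0.06 (SE; limma adjusted p = 0.0017), a level 20.1% higher. With tagged Rvb2 it measured 1961, 2069 and 2116 in the wild type, 2711, 2723 and 2549 without PIH1, and 2736, 2695 and 2622 without TAH1. Here both deletions lay above the wild type without overlap, by 0.38 ± 0.06 (limma adjusted p = 1.4e-05) and 0.39 ± 0.06 (limma adjusted p = 2.4e-05). In the Rvb1-tagged TAH1 deletion the values of 2332, 2386 and 2398 lay within the wild type range, and the 95% interval of the log2 change was -0.098 to 0.14.

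RPB2 (YOR151C), which forms the other side of the active centre, measured 1886, 2049 and 1935 with tagged Rvb1 and 2199, 2229 and 2100 without PIH1. The groups did not overlap, yet the log2 change of 0.15 ± 0.09 did not pass the test (limma adjusted p = 0.18). With tagged Rvb2 the wild type measured 1331, 1744 and 1857, the PIH1 deletion 2083, 2152 and 1959 and the TAH1 deletion 1956, 1889 and 2042. The replicate at 1331 is the library whose labels disagree. The Rvb1-tagged TAH1 deletion, at 1892, 1980 and 2017, overlapped its wild type (0.0050 ± 0.09, limma adjusted p = 0.98). With tagged Rvb2, RPB2 rose by 0.34 ± 0.09 without PIH1 (limma adjusted p = 0.0023) and by 0.27 ± 0.09 without TAH1 (limma adjusted p = 0.020). Without that library the TAH1 value was 0.12 (limma adjusted p = 0.099), and without TAH1 deletion replicate 3 it was 0.24 (limma adjusted p = 0.071), while the PIH1 call stayed. In the fit without the library at 1331, RPB2 was also called in the Rvb1-tagged PIH1 deletion (limma adjusted p = 0.028), at the same log2 change.

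Of the platform subunits, RPB11 was called in 1 of the 4 deletions and RPB3 in none. RPB3 (YIL021W) had log2 changes from -0.040 to 0.082, each with a standard error of 0.08. It measured 353 to 466 over all 18 libraries, with a median of 413, and every deletion group overlapped its wild type. RPB11 (YOL005C), the partner of Rpb3 in the platform, measured 508, 433 and 443 in the Rvb1-tagged wild type and 615, 590 and 580 without PIH1. There it rose by 0.37 ± 0.09 (limma adjusted p = 0.0040), with no overlap. With tagged Rvb2 the wild type libraries were spread over 582, 544 and 449, and those of the PIH1 deletion, at 597, 537 and 538, overlapped them (0.093 ± 0.09, limma adjusted p = 0.36). The TAH1 deletions measured 446, 494 and 468 with tagged Rvb1 and 485, 469 and 530 with tagged Rvb2, each overlapping its wild type (0.027 ± 0.09 and -0.079 ± 0.09; limma adjusted p = 0.87 and 0.49).

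The 3 shared subunits among the members rose in both PIH1 deletions. RPB10 (YOR210W), a small zinc-binding subunit, measured 554, 660 and 532 in the Rvb1-tagged wild type and 807, 745 and 766 without PIH1, a rise of 0.41 ± 0.11 (limma adjusted p = 0.0087). With tagged Rvb2 it measured 686, 487 and 498 in the wild type and 816, 759 and 881 without PIH1. That rise of 0.57 ± 0.11 (limma adjusted p = 0.00023) was the largest among the members in any deletion, a level 48.5% higher. RPB5 (YBR154C), which forms part of the jaw that grips the DNA ahead of the active centre, rose by 0.42 ± 0.08 in the Rvb1-tagged PIH1 deletion (limma adjusted p = 0.00067), from 930, 1077 and 895 to 1304, 1259 and 1307. In the Rvb2 background it measured 952, 904 and 816 in the wild type, 1126, 1130 and 1156 without PIH1, and 1277, 1125 and 1059 without TAH1. Both rises, of 0.36 ± 0.08 (limma adjusted p = 0.00069) and 0.37 ± 0.08 (limma adjusted p = 0.0010), came without overlap. RPB5 in the Rvb1-tagged TAH1 deletion measured 1022, 1051 and 1144 (0.15 ± 0.08, limma adjusted p = 0.22) and RPB10 measured 645, 667 and 734 (0.23 ± 0.11, limma adjusted p = 0.18). In both cases wild type replicate 2 was the one that reached into the range of the deletion.

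RPB8 (YOR224C), which binds the largest subunit, measured 1195, 1479 and 1160 in the Rvb1-tagged wild type and 1565, 1484 and 1489 without PIH1. The highest wild type value, replicate 2, lay just under the lowest deletion value, and the rise was 0.25 ± 0.08 (limma adjusted p = 0.026). Without wild type replicate 1, wild type replicate 3 or PIH1 deletion replicate 1 it was no longer called (limma adjusted p = 0.11, 0.13 and 0.088), nor with quantile normalization (0.14, limma adjusted p = 0.14). With tagged Rvb2 it rose by 0.42 ± 0.08 without PIH1 (limma adjusted p = 0.00027), from 1297, 1193 and 1077 to 1676, 1575 and 1501. Without TAH1 in the Rvb1 background RPB8 measured 1404, 1424 and 1490 (0.18 ± 0.08, limma adjusted p = 0.17), and here too wild type replicate 2 lay within that range. RPB8 (0.20 ± 0.08) and RPB10 (0.20 ± 0.11) did not pass in the Rvb2-tagged TAH1 deletion, with limma adjusted p = 0.063 and 0.16. Both passed without Rvb2-tagged wild type replicate 1, the library whose labels disagree (0.26 and 0.36; limma adjusted p = 0.025 and 0.0060), and RPB8 also without Rvb1-tagged wild type replicate 2 (limma adjusted p = 0.012).

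Of the stalk genes, RPB4 was called in opposite directions in the PIH1 deletions and RPB7 was called in 1 deletion. RPB4 (YJL140W), which is needed for growth at high temperature, measured 823, 750 and 783 in the Rvb1-tagged wild type and 958, 908 and 1047 without PIH1. In the Rvb2 background the wild type measured 928, 875 and 843 and the PIH1 deletion 724, 733 and 760. So the deletion libraries lay above all wild type libraries with tagged Rvb1 and below all of them with tagged Rvb2. The log2 changes were 0.30 ± 0.06 (limma adjusted p = 0.0014) and -0.25 ± 0.06 (limma adjusted p = 0.0017), and RPB4 was the only member that fell in any of the 4 deletions. The 2 deletion effects differed by -0.56 ± 0.09 (limma adjusted p = 9.2e-05). In the TAH1 deletions RPB4 overlapped the wild types, at 712 to 802 and 816 to 847. RPB7 (YDR404C), its partner in the stalk, was the steadiest member, with a highest value of 1.19 times the lowest over 18 libraries. It measured 478, 497 and 488 in the Rvb1-tagged wild type and 565, 557 and 525 without PIH1, a rise of 0.17 ± 0.06 (limma adjusted p = 0.037). That call was lost without Rvb1-tagged wild type replicate 1 or 3 or PIH1 deletion replicate 1 or 2 (limma adjusted p from 0.083 to 0.12), and with quantile normalization (0.13, limma adjusted p = 0.14). In the other 3 deletions its log2 change lay between -0.028 and 0.012, each with a standard error of 0.06.

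RPB9 (YGL070C) rose most in the Rvb1-tagged PIH1 deletion. It measured 353, 340 and 353 in the wild type and 486, 479 and 470 without PIH1, a rise of 0.46 ± 0.07 (limma adjusted p = 6.1e-05), or 37.1%. Without TAH1 it stayed at 344, 331 and 368 (-0.0053 ± 0.07, limma adjusted p = 0.97). In the Rvb2 background it measured 313, 331 and 337 in the wild type, 422, 394 and 468 without PIH1, and 392, 367 and 372 without TAH1. The order was wild type, TAH1 deletion, PIH1 deletion with no overlap at either step, and the rises were 0.38 ± 0.07 (limma adjusted p = 5.8e-05) and 0.20 ± 0.07 (limma adjusted p = 0.018). The TAH1 rise was not called without Rvb2-tagged wild type replicate 1 (0.17, limma adjusted p = 0.060) or without TAH1 deletion replicate 1 (0.18, limma adjusted p = 0.076).

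**Figure D2:**
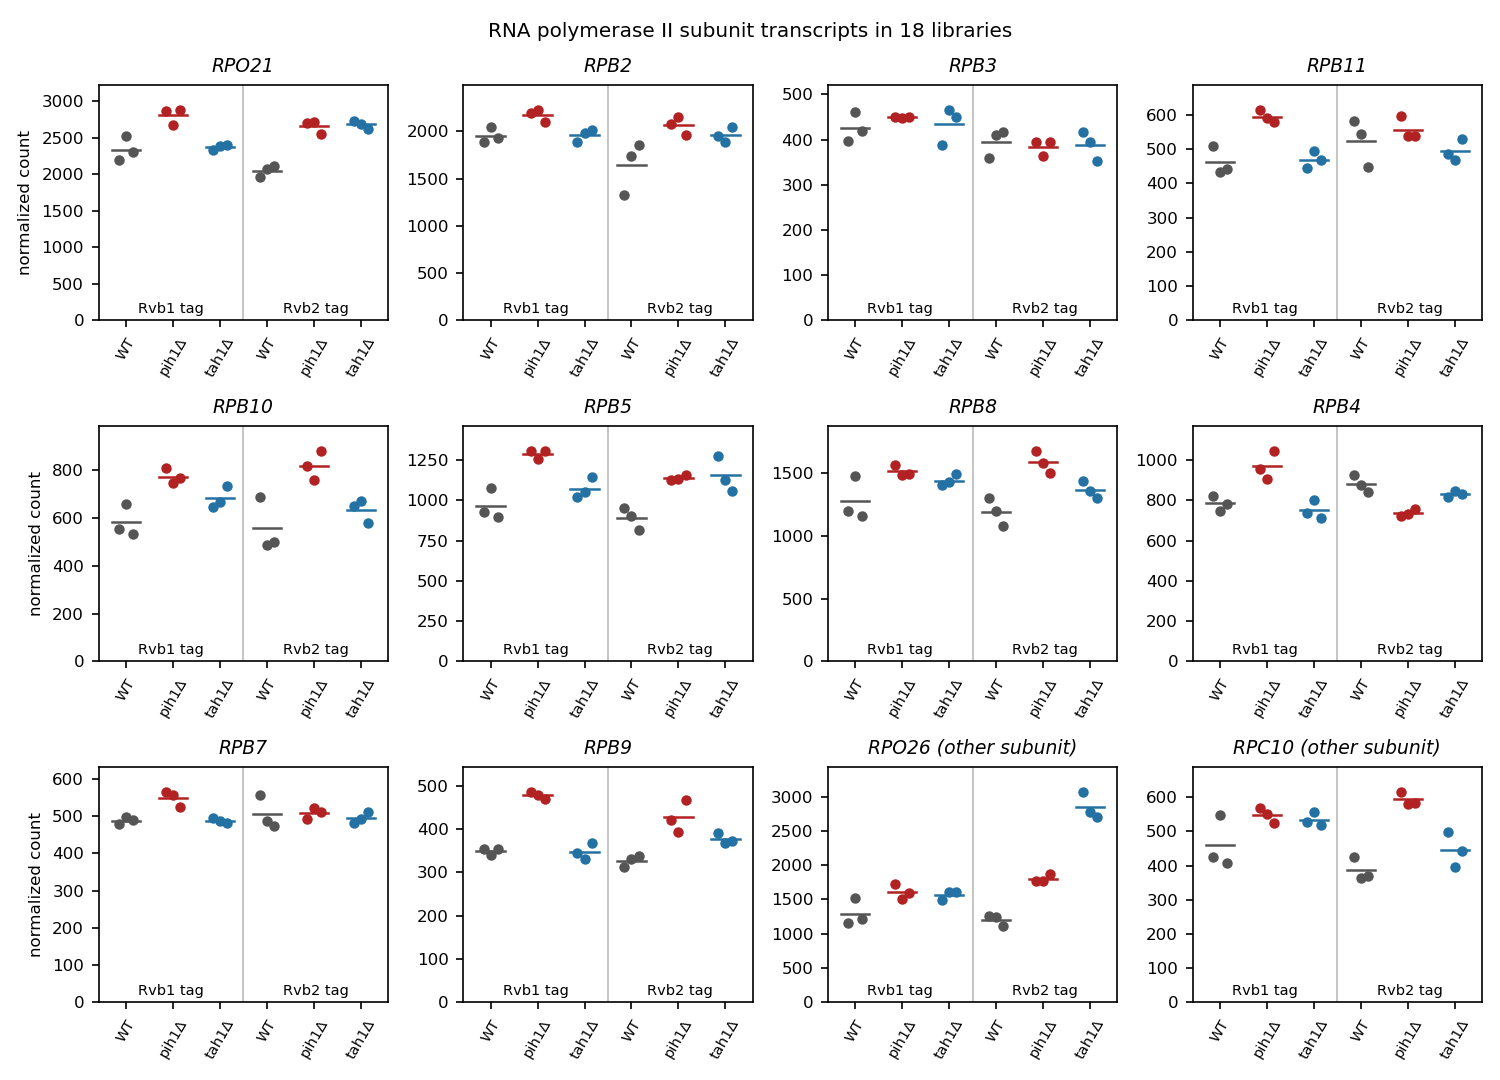
Normalized counts of the 10 members and of RPO26 and RPC10 in each of the 18 libraries, 1 point per library and a line at the mean of each group of 3, gray for wild type, red for the PIH1 deletion and blue for the TAH1 deletion. RPB4 rose in the PIH1 deletion with tagged Rvb1 and fell with tagged Rvb2, and RPO26 reached 2698 to 3069 in the Rvb2-tagged TAH1 deletion.

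The other 2 subunits, RPO26 (YPR187W, Rpb6) and RPC10 (YHR143W-A, Rpb12), are both shared with polymerases I and III. In the Rvb1-tagged PIH1 deletion both rose, by 0.32 ± 0.09 (limma adjusted p = 0.0088) and 0.26 ± 0.10 (limma adjusted p = 0.045), with 1 wild type library inside the range of the deletion libraries in each case. The RPO26 call was lost without Rvb1-tagged wild type replicate 1 (limma adjusted p = 0.055) and the RPC10 call in 14 of the 18 fits that left out 1 library, with limma adjusted p up to 0.21. In the Rvb2-tagged PIH1 deletion they rose by 0.58 ± 0.09 and 0.62 ± 0.10 (limma adjusted p = 1.3e-05 and 2.8e-05), beside 0.57 for RPB10, the largest rise among the members. RPO26 in the Rvb2-tagged TAH1 deletion went from 1261, 1238 and 1112 to 3069, 2776 and 2698, a rise of 1.24 ± 0.09 (limma adjusted p = 3.0e-09). RPO26 lies on chromosome XVI, whose genes had a median log2 change of 0.97 in that strain. Its value there cannot be told apart from that of its chromosome. RPC10, on chromosome VIII, was not called there (0.20 ± 0.10, limma adjusted p = 0.11), but it was called with library weights (limma adjusted p = 0.0043) and without Rvb1-tagged wild type replicate 2 or Rvb2-tagged TAH1 deletion replicate 2 (limma adjusted p = 0.030 and 0.042). In the Rvb1-tagged TAH1 deletion RPO26 rose by 0.29 ± 0.09 (limma adjusted p = 0.044), a call lost in 13 of those 18 fits (limma adjusted p up to 0.24 over all alternatives), and RPC10 was not called (0.23 ± 0.10, limma adjusted p = 0.15). RPC10 was called there without wild type replicate 2 (0.36, limma adjusted p = 0.0028) and with library weights (0.34, limma adjusted p = 0.00077).

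Set against the TAH1 deletion directly, the PIH1 deletion had higher subunit transcripts with tagged Rvb1. There 6 of 10 were higher and 0 lower, where 12.0% of all genes were higher and 14.5% lower, and the members' median log2 difference was 0.21 against 0.00053 for all genes. RPB9 (0.46 ± 0.07, limma adjusted p = 6.5e-05), RPB4 (0.37 ± 0.06, limma adjusted p = 0.00032), RPB11 (0.34 ± 0.09, limma adjusted p = 0.0085) and RPO21 (0.24 ± 0.06, limma adjusted p = 0.0040) were higher under each of the 18 leave-one-out fits. RPB5 (0.27 ± 0.08, limma adjusted p = 0.019) and RPB7 (0.17 ± 0.06, limma adjusted p = 0.047) lost their calls in 4 and 14 of these fits. With tagged Rvb2, 3 were higher (RPB8, RPB9 and RPB10) and RPB4 was lower, where 28.7% of all genes were higher and 33.6% lower, and the median log2 difference was 0.056. RPB10 differed most (0.37 ± 0.11, limma adjusted p = 0.0091). RPB4 was lower by -0.17 ± 0.06 (limma adjusted p = 0.025), and its 3 PIH1 deletion libraries lay below the 3 TAH1 deletion libraries. With quantile normalization 4 were higher and 0 lower, since RPB4 was not called (-0.13, limma adjusted p = 0.11) and RPB11 was (0.24, limma adjusted p = 0.039). RPB8 (0.22 ± 0.08) and RPB9 (0.18 ± 0.07) had limma adjusted p = 0.031 and 0.026. The calls of RPB4, RPB8 and RPB9 were lost in 4, 4 and 3 of the 18 leave-one-out fits, each time without a library of these 2 deletions, and that of RPB10 in none. RPO21 and RPB5, which rose in both deletions there, differed by -0.013 ± 0.06 and -0.016 ± 0.08, with 95% intervals of -0.13 to 0.11 and -0.18 to 0.15.

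Between the 2 tagged wild types 0 of 10 members were called by limma, and 3 had an unadjusted p under 0.05, where 12 of all genes (0.206%) were called and 1375 had an unadjusted p under 0.05. The 3 were RPO21 (-0.19 ± 0.06, limma adjusted p = 0.091) and RPB2 (-0.26 ± 0.09, limma adjusted p = 0.11), lower with tagged Rvb2, and RPB4 (0.17 ± 0.06, limma adjusted p = 0.14), higher with tagged Rvb2. For these 3, and for RPB9 (-0.093 ± 0.07, limma adjusted p = 0.40), the libraries of the 2 wild types did not overlap. Without Rvb1-tagged wild type replicate 1, RPO21 was called lower (-0.24, limma adjusted p = 0.035). The Rvb2-tagged wild type libraries are also the controls of both Rvb2-tagged deletions.

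The deletion effects were compared between backgrounds as the Rvb2 effect minus the Rvb1 effect. For PIH1, 1 of 10 members differed, RPB4, where 50.3% of all genes did. For the other 9 the differences ran from -0.28 to 0.19, and the one nearest the threshold was RPB11 (-0.28 ± 0.13, limma adjusted p = 0.075). RPB11 passed without Rvb1-tagged wild type replicate 1 (limma adjusted p = 0.029) or Rvb2-tagged wild type replicate 3 (limma adjusted p = 0.0085), and RPB10 without Rvb2-tagged wild type replicate 1 (0.32, limma adjusted p = 0.048). For TAH1, 1 of 10 differed, RPO21, where 24.5% of all genes did. Its effect was larger with tagged Rvb2 by 0.37 ± 0.08 (limma adjusted p = 0.0021). RPB2 joined it without Rvb2-tagged wild type replicate 3 (0.36, limma adjusted p = 0.032). The calls for RPB4 and RPO21 held in every fit that left out 1 library. The wild types enter both sides of these differences, and RPO21 and RPB4 are among the 4 members whose wild types did not overlap. The median log2 change of chromosome XVI was 0.97 in the Rvb2-tagged TAH1 deletion and 0.0049 in the Rvb1-tagged one. In the TAH1 differences the tag and that rise cannot be told apart.

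Across the 18 libraries the members did not move as 1 block. Of 45 pairs 40 had a Pearson r above 0 on the log2 scale and 21 above 0.5, with a median of 0.45. The closest pair was RPB8 and RPB10 (r = 0.91), and the lowest value was between RPB4 and RPB8 (r = -0.18). Set against the mean of the 9 others, RPB5 (r = 0.90), RPB9 (0.87) and RPO21 (0.81) followed it most closely, and RPB3 (0.23) and RPB4 (0.17) least. The points share 6 groups of 3 replicates and the library scaling, so these values describe the libraries and carry no test. The genes outside the enzyme closest to the members' mean were CSL4 (r = 0.95), RRP3 (0.93), PDE2 (0.93), LYP1 (0.93) and RRP45 (0.93). CSL4 and RRP45 encode subunits of the RNA exosome, RRP3 a helicase of ribosomal RNA processing, PDE2 a cyclic AMP phosphodiesterase and LYP1 a lysine permease.

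**Figure D3:**
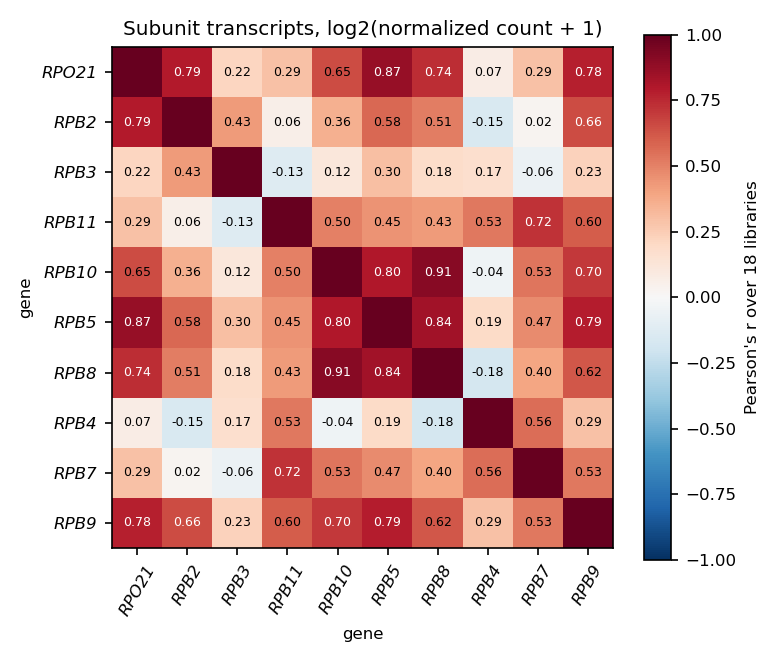
Pearson's r between the log2 values of each pair of members over the 18 libraries, from -1 (blue) to 1 (red), with members ordered by role. RPB8 and RPB10 reach 0.91, RPB3 stays below 0.5 with every other member, and RPB4 exceeds it only with RPB11 (0.53) and RPB7 (0.56) and reaches -0.18 with RPB8.

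The specific subunits of the other nuclear polymerases rose too. All 7 subunits specific to RNA polymerase I rose in both PIH1 deletions, with median log2 changes of 0.52 and 1.16, and 5 of 7 rose in each TAH1 deletion. RPA190 (1.76 ± 0.16, limma adjusted p = 7.0e-08) and RPA135 (1.76 ± 0.17, limma adjusted p = 1.1e-07), its catalytic pair, rose in the Rvb2-tagged PIH1 deletion, where RPO21 and RPB2 rose by 0.38 and 0.34. Of the 10 subunits specific to RNA polymerase III, 8 and 9 rose in the PIH1 deletions with tagged Rvb1 and Rvb2, with medians of 0.39 and 0.90, and 2 and 6 in the TAH1 deletions. RPC19 and RPC40, shared by polymerases I and III, both rose in both PIH1 deletions. In the Rvb1-tagged PIH1 deletion 2 of the polymerase I list were called without wild type replicate 1, 2 without replicate 3 and 4 without PIH1 deletion replicate 1; of the polymerase III list these counts were 4, 3 and 4. RPC19 and RPC40 were not called there without wild type replicate 1 or 3. In the Rvb1-tagged TAH1 deletion the 5 polymerase I calls became 0 to 7 and the 2 polymerase III calls 0 to 9 over the 18 leave-one-out fits, both highest without wild type replicate 2. Without that library 1017 of all 5825 genes tested rose in this strain, against 366 in the main fit. In the Rvb2-tagged TAH1 deletion 3 and 2 were called without TAH1 deletion replicate 1, while in the Rvb2-tagged PIH1 deletion both counts stayed at 7 and 9. Of those genes not on chromosome XVI, 4 of 6 and 5 of 9 rose in the Rvb2-tagged TAH1 deletion. Of all genes tested, 19.2% and 35.2% rose in the PIH1 deletions with tagged Rvb1 and Rvb2, and 6.28% and 23.8% in the TAH1 deletions. The lists were counted and not tested as sets.

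Of the factors that bring RNA polymerase II together and carry it into the nucleus, most rose in the Rvb2-tagged PIH1 deletion. There 6 of 8 rose and 1 fell, with a median log2 change of 0.67, while 3, 0 and 3 rose in the Rvb1-tagged PIH1, Rvb1-tagged TAH1 and Rvb2-tagged TAH1 deletions. Without Rvb1-tagged wild type replicate 2 the last 3 counts were 6, 5 and 5, and the last was 1 without TAH1 deletion replicate 1. Without that wild type library 1373 of all genes rose in the Rvb1-tagged PIH1 deletion and 1017 in the Rvb1-tagged TAH1 deletion. GPN3, a GTPase of polymerase import, rose by 0.67 ± 0.11 (limma adjusted p = 0.00027) and 0.91 ± 0.11 (limma adjusted p = 1.6e-06) in the 2 PIH1 deletions. BUD27, a prefoldin-like protein that acts in polymerase assembly, rose by 1.07 ± 0.13 in the Rvb2-tagged one (limma adjusted p = 1.1e-06). Of the 19 general transcription factor genes, which recruit the polymerase to promoters, 7 rose and 1 fell in the Rvb1-tagged PIH1 deletion and 7 rose and 3 fell in the Rvb2-tagged one. Their medians were 0.13 and 0.071. In the Rvb2-tagged TAH1 deletion 9 rose and 3 fell, and 4 rose and 3 fell of the 14 that are not on chromosome XVI. With tagged Rvb1 and no TAH1, 0 rose and 1 fell. Of 14 elongation and CTD (polymerase tail) factors 5, 0, 3 and 3 rose in the Rvb1-tagged PIH1, Rvb1-tagged TAH1, Rvb2-tagged PIH1 and Rvb2-tagged TAH1 deletions, and 0, 0, 2 and 1 fell. Of all genes tested, in the same order of strains, 19.2%, 6.28%, 35.2% and 23.8% rose and 18.7%, 4.48%, 34.4% and 20.6% fell. Of the 12 elongation and CTD factors not on chromosome XVI, 1 rose and 1 fell in the Rvb2-tagged TAH1 deletion. FCP1, the phosphatase of the Rpo21 tail, rose by 0.72 ± 0.06 in the Rvb2-tagged PIH1 deletion (limma adjusted p = 2.0e-08). PAF1, of the same list, fell there by -0.29 ± 0.06 (limma adjusted p = 0.000225).

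**Figure D4:**
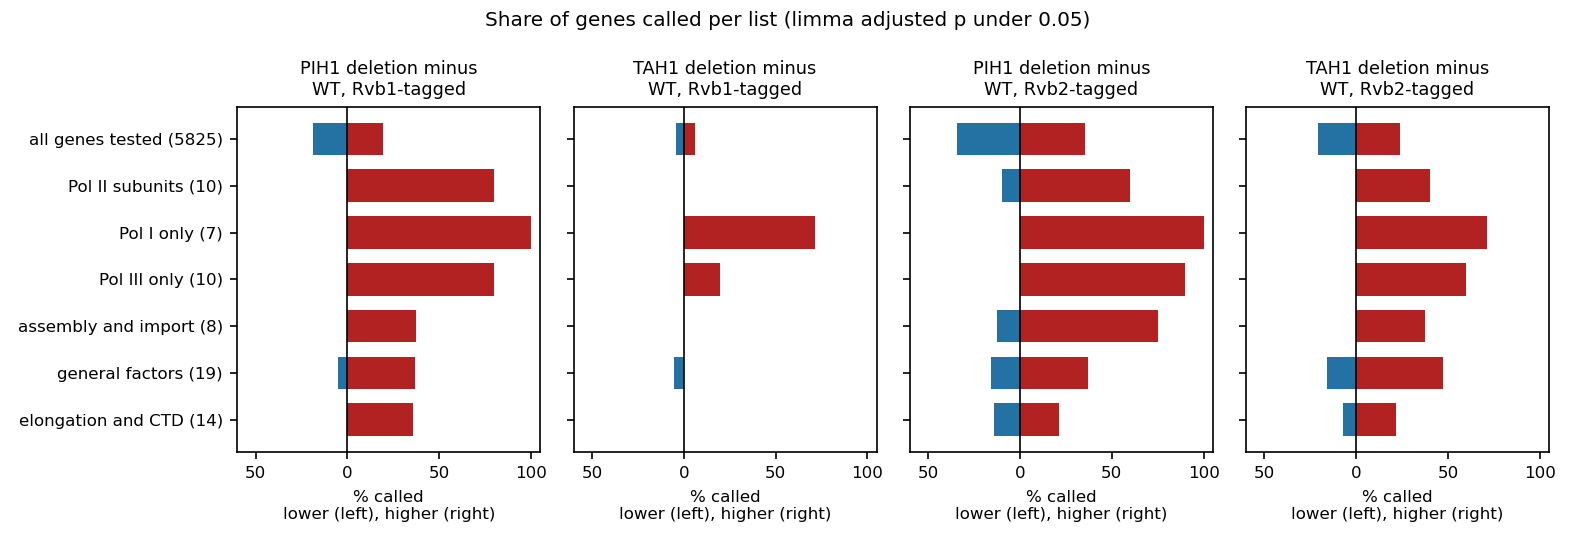
Percent of genes called higher (right, red) and lower (left, blue) in the 4 deletions, for all 5825 genes tested, the 10 RNA polymerase II members and 5 lists of related genes, with list sizes in parentheses. The 7 polymerase I subunits were all called higher in both PIH1 deletions, and the members' bars for higher calls stand at 8, 0, 6 and 4 of 10 genes.

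The transcripts of the tagged chaperones moved in the same strains. RVB1 fell in the Rvb1-tagged PIH1 and TAH1 deletions, by -0.57 ± 0.08 (limma adjusted p = 6.6e-05) and -0.96 ± 0.08 (limma adjusted p = 1.0e-06). RVB2 fell in the Rvb2-tagged ones, by -1.50 ± 0.07 and -0.76 ± 0.07 (limma adjusted p = 3.2e-11 and 9.1e-08). RVB2 lies on the left arm of chromosome XVI, whose genes had a median log2 change of 0.942 in the Rvb2-tagged TAH1 deletion. The size of its change there cannot be told apart from that shift. The Rvb2-tagged PIH1 deletion, where RVB2 was lowest at 302, 307 and 325, is also where RPB4 fell. Its part in the members' values was not tested. Of the 6 R2TP and HSP90 genes, the deleted gene included, 2, 0, 1 and 1 rose and 2, 3, 4 and 2 fell in the Rvb1-tagged PIH1, Rvb1-tagged TAH1, Rvb2-tagged PIH1 and Rvb2-tagged TAH1 deletions. Of the 4 that are not on chromosome XVI, 1, 0, 1 and 1 rose and 2, 3, 2 and 1 fell. Mating markers moved as well, in the same order of strains: of 5 a-cell markers 3, 4, 4 and 1 rose and 1, 0, 1 and 2 fell. Of 3 alpha-cell markers tested 0, 0, 2 and 1 rose and 1, 1, 1 and 0 fell, with STE3, the receptor of alpha cells, at 1 to 36 in all libraries and MFALPHA1 below the filter. Of all genes tested, in that order of strains, 19.2%, 6.28%, 35.2% and 23.8% rose and 18.7%, 4.48%, 34.4% and 20.6% fell. The alpha marker SAG1 rose by 0.66 ± 0.08 in the Rvb2-tagged PIH1 deletion (limma adjusted p = 8.6e-07) and by 0.30 ± 0.08 in the Rvb2-tagged TAH1 deletion (limma adjusted p = 0.0051). The alpha marker STE3 fell in the first of these strains, by -2.01 ± 0.37 (limma adjusted p = 0.00013). The a marker BAR1 fell in both, by -0.92 ± 0.075 and -0.89 ± 0.075 (limma adjusted p = 1.7e-08 and 3.05e-08). The part of these markers in the members' values was not tested.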

How the data were processed

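The tables were made by the authors. The deposited normalized counts (unit: signal) are whole numbers that were already scaled library by library, with scaling factors not given. Deposited FPKM, treated as a score because its values are rounded, is proportional to them gene by gene. The tools named per the submitters' processing notes are DESeq2 1.6.3 and TopHat2 2.0.3, with build sacCer3; which annotation, counter, strand setting or filter the authors used was not given in these sources.

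Changes were tested with limma 3.58.1 (R 4.3.3) on log2(normalized count + 1), which understates changes of low genes, for 5825 genes whose average over 18 libraries reached 10 (375 features were at 0 throughout). One fit with 6 group means and an intensity trend gave 9 contrasts, two-sided, with Benjamini-Hochberg adjustment over all genes and a threshold of 0.05. Errors are SE for log2 changes and SD for levels (n = 6). The fit was tested on simulated data. Whole reads were not recovered, so no count model was run. Windows and motifs were read with Python 3.11.15. The upstream window of 1 of the 5 members that rose in both PIH1 deletions is not reported here.

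The 10 members, the 10 gene lists beside them, the motifs and the tests were chosen with earlier results of these data known. All members, RPO26 and RPC10 were named in every deletion against its wild type, and only some of them in the other comparisons. PIH1 and TAH1 were named by their levels, RVB1 in the Rvb1-tagged deletions and RVB2 in the Rvb2-tagged ones. From the other lists, changes were given for some of the up to 2 genes per list and deletion with the smallest adjusted p. The 5 genes closest to the members' mean were named as well. Alternatives were other pseudocounts, filters and scalings, the FPKM table, library weights, a replicate block, only the groups compared, and each library left out.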

Additional observations from a re-analysis of the deposited data

Results flagged for a closer look

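Among the 12 subunit transcripts, 4 deletion effects differed between the tagged backgrounds by limma's test of the difference itself, given as the Rvb2 effect minus the Rvb1 effect. The PIH1 deletion effect on RPB4 differed by -0.56 ± 0.09 (SE; limma adjusted p = 9.2e-05), since the transcript rose with tagged Rvb1 and fell with tagged Rvb2. The PIH1 deletion effect on RPC10 was larger with tagged Rvb2 by 0.36 ± 0.14 (limma adjusted p = 0.044), and that call was lost in 11 of 18 fits that left out 1 library. The TAH1 deletion effect on RPO21 was larger with tagged Rvb2 by 0.37 ± 0.08 (limma adjusted p = 0.0021). That on RPO26 was larger by 0.96 ± 0.12 (limma adjusted p = 1.2e-05), beside a median log2 change of 0.97 over the 443 genes tested on its chromosome XVI in the Rvb2-tagged TAH1 deletion, from which it cannot be told apart. Of all genes tested 50.3% differed in the PIH1 effect and 24.5% in the TAH1 effect. For RPO21, which is not on chromosome XVI, the tag and the raised chromosome of the Rvb2-tagged TAH1 deletion cannot be told apart either.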

How the results depend on the processing

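No subunit value that was called changed sign under any alternative; over the 12 subunits, 9 contrasts and all alternatives, 99 calls were lost and 43 gained. Of the members, 6 kept their call in the Rvb1-tagged PIH1 deletion (RPO21, RPB4, RPB5, RPB9, RPB10 and RPB11) and 7 in the Rvb2-tagged one under every alternative. With quantile normalization 2 members were called in the Rvb2-tagged TAH1 deletion; RPB2 and RPB9 were lost (limma adjusted p = 0.059 and 0.069). With library weights 3 were called in the Rvb1-tagged TAH1 deletion, where 1245 of all genes rose and 1035 fell. In the PIH1 difference between backgrounds 2 were called with these weights. Without both doubted wild type libraries (Rvb1-tagged replicate 2 and Rvb2-tagged replicate 1), an alternative chosen after seeing the data, 3 were called in the Rvb1-tagged TAH1 deletion. There 1212 of all genes rose and 956 fell. With 1 library left out, the number of members called in the Rvb1-tagged TAH1 deletion was 0 to 3, and it was 1 to 5 for PIH1 against TAH1 with tagged Rvb2, 0 to 1 between wild types, 1 to 2 for the PIH1 difference and 1 to 2 for the TAH1 difference. With only the groups compared in the fit, RPB7, RPB8, RPO26 and RPC10 lost their calls in the Rvb1-tagged PIH1 deletion (limma adjusted p = 0.087, 0.11, 0.082 and 0.14) and RPB2 in the Rvb2-tagged TAH1 deletion (limma adjusted p = 0.058). The cause was not tested, except that fewer samples entered the last of these fits.

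The replicate numbers did not pair the libraries: of 45 same-numbered pairs across groups 8 had r over 0.1 (median 0.0019), and 6 of 18 libraries were closest to one of their own number. With a replicate block 8, 0, 7 and 4 members were called in the Rvb1-tagged PIH1, Rvb1-tagged TAH1, Rvb2-tagged PIH1 and Rvb2-tagged TAH1 deletions, and 5 rather than 6 for PIH1 against TAH1 with tagged Rvb1, where RPB7 had limma adjusted p = 0.064.

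Counts over all genes moved more. In the Rvb1-tagged TAH1 deletion 366 rose and 261 fell; these became 1245 and 1035 with library weights, 1017 and 810 without Rvb1-tagged wild type replicate 2, 1212 and 956 without both doubted libraries, 37 and 37 with only the groups compared, and 267 and 320 with quantile normalization, where 45.5% rather than 58.4% of calls were higher. Without Rvb1-tagged wild type replicate 1 or 3 they were 187 and 127 or 172 and 124, and without TAH1 deletion replicate 1, 2 or 3 they were 201 and 181, 228 and 177, or 224 and 177. In the Rvb1-tagged PIH1 deletion 548 rose and 729 fell with only the groups compared, rather than 1119 and 1092. In the Rvb2-tagged TAH1 deletion 43.5% rather than 53.7% of calls were higher with quantile normalization. Between wild types 12 genes were called, against 144 with library weights, 0 with only the groups compared, 472 without Rvb1-tagged wild type replicate 1, 313 without replicate 3, 45 without Rvb2-tagged wild type replicate 3 and 1 to 9 in the other 15 leave-one-out fits. For the TAH1 difference 2156 rather than 1426 were called with library weights, and 918 without chromosome XVI, where the share of higher calls was 34.3% rather than 53.0%. The count models planned as an alternative were not run, since whole reads were not recovered from the rounded values.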
